A study of Homo sapiens with 6 samples.

Results

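A set of 9 genes of cellular iron handling was followed on 6 arrays of MDA-MB-231 cells. The genes were CYBRD1, TFRC, FTH1, FTL, SLC40A1, SLC11A2, IREB2, ACO1 and STEAP3, and every probe whose file entry was a RefSeq transcript of one of these genes was taken. This gave 17 probes of the 9 genes, out of 50599 probes on the array and 21743 genes that could be named. CYBRD1 was chosen by its signal in this same experiment, because it stood among the largest rises with hsa-miR-214-3p. Its differences between groups are therefore given as descriptions without a test. The other 8 genes were chosen for their roles in iron handling, but with earlier results of these data known. Their tests may thus not be fully independent of the choice.

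The MDA-MB-231 line comes from a breast cancer, has mesenchymal features and lacks the estrogen and progesterone receptors. A reverse transfection brought in the precursor of hsa-miR-205-5p, that of hsa-miR-214-3p, or a pre-miR negative control, called the scrambled control here, and RNA was collected 72 h later. The study raised the level of each miRNA to learn which transcripts change when it is abundant. Each of the 3 groups had 2 arrays, all groups came from the same line, and the labels do not say whether the 2 arrays of a group came from separate cultures, so the tests measure only the spread between these arrays, which may be technical. A level below is a normalized log2 signal, that is log2 of the processed signal after the 75th percentile of its array was subtracted, and levels are compared between groups for the same probe and never between probes.

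Iron enters most cells bound to transferrin, through the transferrin receptor, and is reduced in the endosome by a STEAP reductase before the divalent metal transporter moves it to the cytosol. CYBRD1, a reductase of the plasma membrane best known from the duodenal brush border, prepares ferric iron for the same transporter. Spare iron is stored inside shells of ferritin heavy and light chains, and ferroportin is the exporter. The iron regulatory proteins bind iron-responsive elements, short hairpins in the messages for ferritin, ferroportin, the transferrin receptor and the metal transporter, and so tie translation or message stability to the iron supply.

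The mature sequences of the transfected miRNAs, as RefSeq gives them, are shown because they define the groups. The seed, bases 2 to 8, is in capitals, and the seeds of the pair are different. Positions are on GRCh38.p14, at chr1:209432166-209432187 on the plus strand for hsa-miR-205-5p and at chr1:172138816-172138837 on the minus strand for hsa-miR-214-3p.
hsa-miR-205-5p: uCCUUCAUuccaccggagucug
hsa-miR-214-3p: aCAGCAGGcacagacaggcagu
A stretch near the start of the FTL transcript, bases 21 to 50, is shown because FTL carried the main difference reported below. Its 30 bases lie at chr19:48965329-48965358 (GRCh38.p14, plus strand), and the capitals mark CAGTG, the loop letters of an iron-responsive element, searched for on the transcript strand in the first 50 bases after each start.
FTL: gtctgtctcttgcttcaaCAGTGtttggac
These letters were found in 6.48% of the 35116 start windows of all genes, and among the 8 member genes with a window they were found in FTL. A match of these letters is a description and does not by itself mark an element. Only the first 50 bases were searched, so an element elsewhere in the message of another member could not be found.

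Between 35.4% and 42.2% of the 58717 spots that were not controls were well above background on each array, and 0 were saturated. VIM, CD44, CAV1 and KRT18, which this line expresses, were well above background on all 6 arrays with each of their probes, and ESR1, PGR, ALB and HBB were not with any. KRT8, also expected, was well above background in 13 of 18 probe readings, the leukocyte marker PTPRC in 4 of 30 and the endothelial marker PECAM1 in 3 of 18. The 3 readings of PECAM1 came from 1 of its probes, which passed the background filter given below through the control arrays alone, so its values are given without a test. That probe read -2.08 and -2.49 with hsa-miR-205-5p, not well above background, -1.21 and -1.42 with hsa-miR-214-3p, and -0.41 and -0.47 in the control. The epithelial markers CDH1 and EPCAM, taken as low in this line, were well above background on all 6 arrays and were called higher with hsa-miR-205-5p, by 1.96 and 2.40 on the log2 scale. The root mean square difference between the 2 arrays of a group was 0.51 with hsa-miR-205-5p, 0.34 with hsa-miR-214-3p and 0.67 in the scrambled control, so the control arrays stood farthest apart.

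A probe was tested when, in 1 or more groups, both arrays read it well above background. Of the member probes 16 passed, from 8 genes, and 18468 probes passed in all. The SLC40A1 probe did not pass. A call needed a limma adjusted p under 0.05, with adjustment over all 18468 probes, and a difference of at least 2-fold. With hsa-miR-205-5p against the scrambled control, 2 of the 14 tested probes other than those of CYBRD1 were called lower, where 8.05% of all tested probes were, and 0 were called higher, where 4.14% were. Both called probes were of FTL, the light chain of ferritin. With hsa-miR-214-3p, 0 of the 14 were called lower and 0 higher, where 1.68% and 0.991% of all tested probes were. At an unadjusted p under 0.05 with no limit on fold change, 6 of the 14 were lower and 1 was higher with hsa-miR-205-5p, where 18.8% and 18.4% of all tested probes were. All 6 lower probes were of FTL and FTH1, which have 3 and 4 of the 14 probes, so this count rests on 2 genes. With hsa-miR-214-3p, 0 of the 14 were lower and 1 was higher at this p, where 12.3% and 10.3% were. The median difference of the 14 probes was -0.33 with hsa-miR-205-5p and -0.01 with hsa-miR-214-3p, beside 0.05 and -0.01 over all tested probes. Both comparisons share the control arrays.

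**Figure D1:**
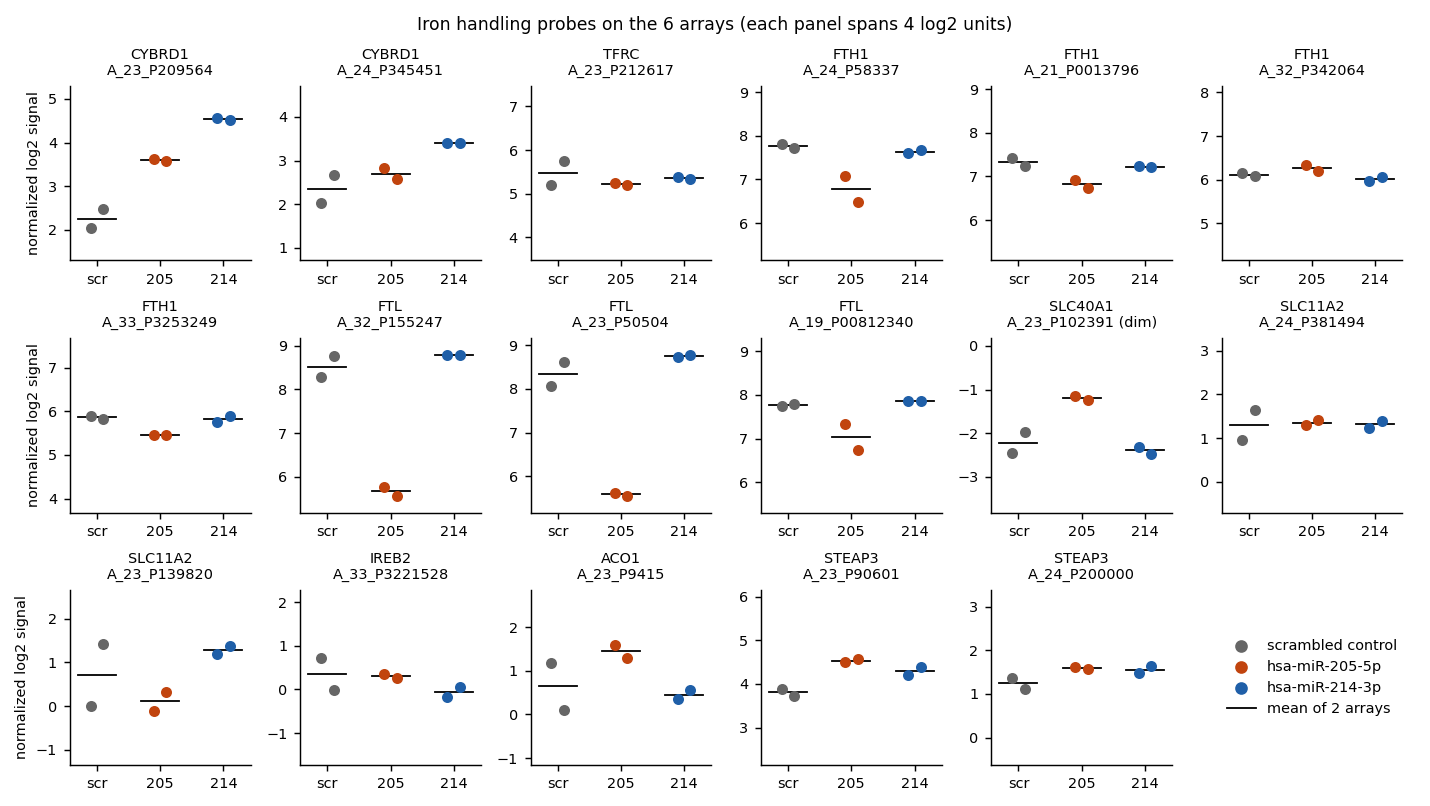
Normalized log2 signal (y axis, 4 log2 units in each panel) of the 17 member probes in the scrambled control and with either precursor, hsa-miR-205-5p before hsa-miR-214-3p (left to right in each panel); each point is 1 array and each line the mean of the 2 arrays. FTL probes A_32_P155247 and A_23_P50504 sat between 5.56 and 5.77 on the hsa-miR-205-5p arrays and between 8.07 and 8.79 on the other 4, and the probe of SLC40A1, marked dim, did not pass the background filter.

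FTL gave the largest difference among the members with hsa-miR-205-5p. The normalized log2 signal of probe A_32_P155247 was 5.77 and 5.57 on the hsa-miR-205-5p arrays, 8.78 and 8.79 on the hsa-miR-214-3p arrays, and 8.28 and 8.76 on the control arrays. Probe A_23_P50504 read 5.62 and 5.56, then 8.72 and 8.78, then 8.07 and 8.62 in the same order. On both probes the hsa-miR-205-5p arrays lay well below the other 4 and did not overlap with them. Probe A_32_P155247 was 7.21-fold lower than in the scrambled control (log2 difference -2.85, SE 0.21, 95% interval -3.38 to -2.32, limma adjusted p = 0.00800), and was placed 65th from the lowest of the 18468 probes tested. Probe A_23_P50504 was 6.75-fold lower (log2 difference -2.75, SE 0.22, limma adjusted p = 0.00800), and was placed 83rd from the lowest. In the processed signal, before scaling, probe A_32_P155247 read 2271 and 1668 with hsa-miR-205-5p against 15627 and 25074 in the control, far from the background. In bulk RNA, fewer cells with the transcript and less transcript per cell cannot be told apart.

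With hsa-miR-214-3p the same FTL probes differed from the control by 0.27 (95% interval -0.27 to 0.80, limma adjusted p = 0.503) and 0.41 (-0.14 to 0.97, adjusted p = 0.332). The precursors were also compared with each other. FTL was lower with hsa-miR-205-5p than with hsa-miR-214-3p by log2 differences of -3.12 and -3.17, both with a limma adjusted p of 0.00383, and these were the 2 of 14 probes called lower in that comparison, where 11.5% of all tested probes were. None of the 14 was called higher by limma, where 8.37% were. At an unadjusted p under 0.05, 4 were lower and 1 was higher, where 21.7% and 24.4% of all tested probes were. All 4 lower probes were of FTL or FTH1. The difference of FTL between the precursors is thus larger than the spread between arrays.

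CDH1 and EPCAM rose, and the probe of PECAM1 read lowest, on the same 2 arrays on which FTL was lower, and their part in the FTL result was not tested. The FTL difference of both probes was past the thresholds in 18 of 20 alternative analyses. It was not without the second hsa-miR-205-5p array (-2.75 and -2.72, limma adjusted p = 0.0559 for both), where 0 of all tested probes were called in either direction, and not with the methods' t-test after adjustment (adjusted p = 0.164 and 0.168).

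The third FTL probe, A_19_P00812340, gave a smaller difference. Its levels were 7.33 and 6.75 with hsa-miR-205-5p, 7.86 and 7.85 with hsa-miR-214-3p, and 7.74 and 7.79 in the control. The hsa-miR-205-5p arrays were again the lowest, but the difference of -0.73 (95% interval -1.30 to -0.15) did not pass the test (limma adjusted p = 0.0815). It passed both limits with normexp (-1.11, limma adjusted p = 0.0469) and with scaling to the median (-1.12, adjusted p = 0.0390). So the FTL probes shared a direction and disagreed in size by about 2 log2 units. Ferritin chains have many processed pseudogenes with near-identical sequence, and the files do not give the probes' sequences, so how much signal of any ferritin probe comes from a copy is uncertain.

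**Figure D2:**
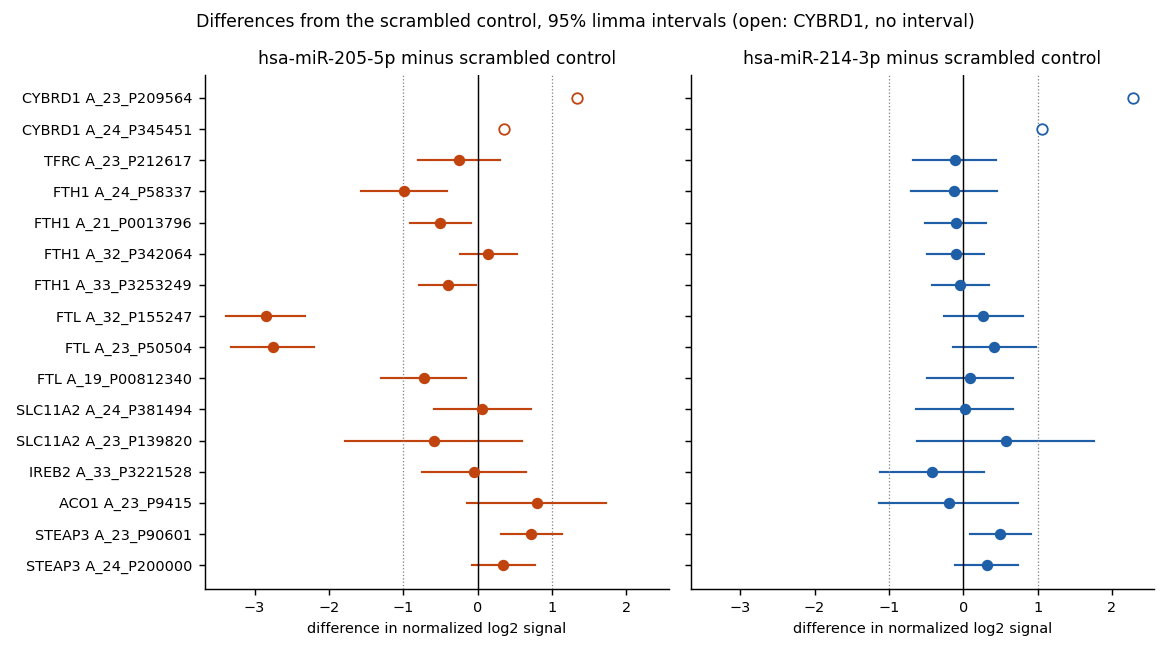
Difference in normalized log2 signal from the scrambled control (x axis) for the 16 tested member probes, with 95% limma intervals; dotted lines mark 2-fold, and the open circles of CYBRD1 have no interval because CYBRD1 was chosen by its values. With hsa-miR-205-5p the intervals of 2 FTL probes lie wholly below the 2-fold line. With hsa-miR-214-3p no interval of the 14 probes other than those of CYBRD1 lies wholly beyond either line, though some cross a line.

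FTH1, the ferritin heavy chain that oxidises iron for storage, had 4 probes, and 3 of them were lower with hsa-miR-205-5p on both arrays than on both control arrays. Such separation was common, and in the wider iron list below 21 of 87 tested probes were lower in this way and 34 higher. Probe A_24_P58337 read 7.07 and 6.48 with hsa-miR-205-5p, 7.61 and 7.66 with hsa-miR-214-3p, and 7.81 and 7.72 in the control. It differed from the control by -0.99 (SE 0.23, 1.98-fold lower, limma adjusted p = 0.0402), which is just under the 2-fold limit and so was not called. Without the first hsa-miR-205-5p array the difference was -1.28, and without the second it was -0.69, each value resting on 1 hsa-miR-205-5p array. Probes A_21_P0013796 and A_33_P3253249 differed by -0.50 and -0.40, with limma adjusted p of 0.0873 and 0.122. The remaining probe, A_32_P342064, went the other way by 0.15 (limma adjusted p = 0.522), and turned to -0.02 with quantile normalization and -0.24 with scaling to the median. With hsa-miR-214-3p the 4 FTH1 probes differed from the control by between -0.13 and -0.04, and none passed the test.

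CYBRD1, by contrast, was higher with both precursors, and the values here describe what it was selected on. Probe A_23_P209564 read 2.04 and 2.49 in the scrambled control, 3.62 and 3.57 with hsa-miR-205-5p, and 4.57 and 4.52 with hsa-miR-214-3p. The 3 groups did not overlap, and from low to high they were ordered as scrambled control, then hsa-miR-205-5p, then hsa-miR-214-3p. With hsa-miR-214-3p the signal was 4.87-fold that of the control (log2 difference 2.29), which placed it 17th from the top of the 18468 probes tested. With hsa-miR-205-5p it was 2.52-fold (1.33), against the same control arrays that entered the choice, so this value is no independent support. The gap between the precursors was -0.95.

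The second CYBRD1 probe, A_24_P345451, showed the same order with smaller steps. It read 2.02 and 2.67 in the control, 2.82 and 2.58 with hsa-miR-205-5p, and 3.41 and 3.40 with hsa-miR-214-3p. Only the hsa-miR-214-3p arrays stood clear of both control arrays. The differences from the control were 1.06 with hsa-miR-214-3p, 559th from the top, and 0.36 with hsa-miR-205-5p, which was smaller than the gap of 0.65 between the control arrays and turned to -0.03 with scaling to the median.

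**Figure D3:**
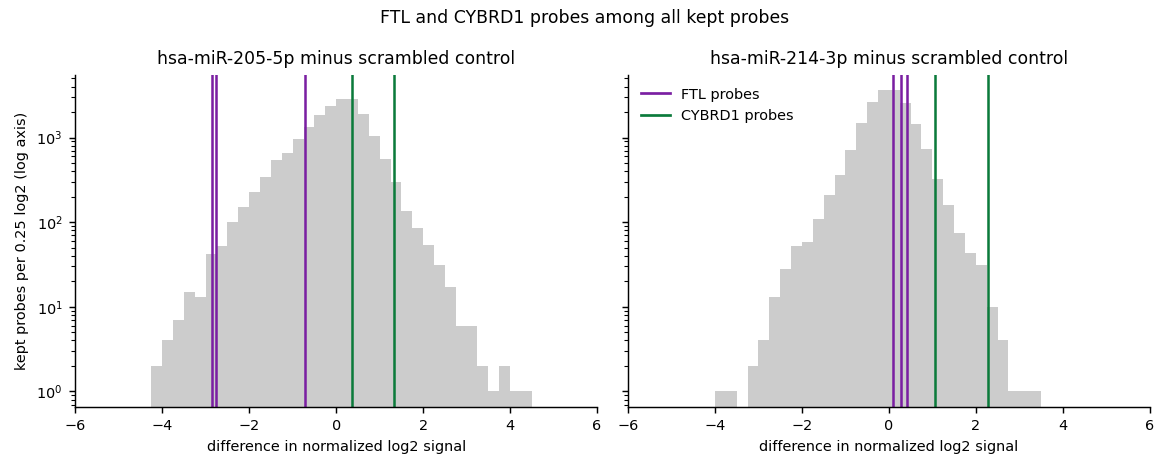
Number of tested probes (y axis, log scale) by difference in normalized log2 signal from the scrambled control (x axis, bins of 0.25), with vertical lines at the 3 FTL probes and the 2 CYBRD1 probes. With hsa-miR-205-5p, 2 FTL lines stand in the low tail at -2.85 and -2.75; with hsa-miR-214-3p all FTL lines lie near the middle and the CYBRD1 lines lie at 1.06 and 2.29.

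Genes with a profile like that of CYBRD1 were ranked by Pearson's r with probe A_23_P209564 over the 6 arrays, among 6251 genes whose range was at least 1 log2 unit. The closest were EEIG2 (r = 0.999), CAV2 (0.992), MAPRE1 (0.990), PLEKHO1 (0.989) and EDN1 (0.988). All 5 were lowest in the control and highest with hsa-miR-214-3p, with differences from the control between 0.94 and 1.31 for hsa-miR-214-3p and between 0.49 and 0.91 for hsa-miR-205-5p. With 6 arrays in 3 groups a high r mostly means the same order of group levels, and 106 genes reached 0.9. The second CYBRD1 probe reached 0.921.

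None of the probes of TFRC, STEAP3 and SLC11A2, the other genes of iron entry, was called by limma against the control. TFRC, the transferrin receptor, was read by 10 spots on each array, with levels of 5.25 and 5.21 with hsa-miR-205-5p, 5.37 and 5.34 with hsa-miR-214-3p, and 5.20 and 5.75 in the control. The control arrays enclosed all 4 precursor arrays. The differences were -0.25 (95% interval -0.80 to 0.31, limma adjusted p = 0.450) and -0.12 (-0.67 to 0.44, adjusted p = 0.791), and both turned positive, to 0.03 and 0.16, without the second control array.

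STEAP3, the endosomal ferrireductase of the transferrin cycle, was higher with both precursors on both of its probes. Probe A_23_P90601 read 4.50 and 4.57 with hsa-miR-205-5p, 4.21 and 4.40 with hsa-miR-214-3p, and 3.89 and 3.73 in the control, so all 4 precursor arrays lay above both control arrays. The difference with hsa-miR-205-5p, 0.72 (SE 0.16, limma adjusted p = 0.0371), passed the p threshold but at 1.65-fold not the fold limit. With hsa-miR-214-3p it was 0.49 (adjusted p = 0.164). Probe A_24_P200000 differed by 0.35 and 0.31 in the same comparisons (limma adjusted p = 0.202 and 0.341), and the first of these turned to -0.04 with scaling to the median.

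SLC11A2 encodes the divalent metal transporter, and its probes had no shared pattern. Probe A_24_P381494 read between 0.95 and 1.64 in the control and between 1.23 and 1.41 on the precursor arrays, with differences of 0.06 and 0.02. Probe A_23_P139820 read -0.10 and 0.33 with hsa-miR-205-5p, 1.18 and 1.36 with hsa-miR-214-3p, and -0.01 and 1.41 in the control. The control arrays of this probe were 1.42 apart, more than either difference from the control (-0.59, limma adjusted p = 0.405, and 0.57, adjusted p = 0.524). Which control array was left out decided the size. Without the first, the difference was -1.30 with hsa-miR-205-5p, and without the second it was 1.28 with hsa-miR-214-3p. Each of these values rests on 1 control array. Between the precursors, which do not involve the control, the difference was -1.16 (95% interval -2.35 to 0.03, limma adjusted p = 0.115), and in a fit of those 4 arrays alone the adjusted p was 0.0164.

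The iron regulatory proteins are encoded by ACO1, which is cytosolic aconitase when it holds an iron-sulfur cluster, and IREB2, which is degraded when iron is plentiful. ACO1 read 1.59 and 1.30 with hsa-miR-205-5p, 0.34 and 0.55 with hsa-miR-214-3p, and 1.19 and 0.11 in the control. The hsa-miR-205-5p arrays lay above both control arrays, yet the difference of 0.80 (95% interval -0.14 to 1.73, limma adjusted p = 0.183) was smaller than the 1.08 between the control arrays. Without the first control array it was 1.34, and without the second 0.26, each value resting on 1 control array. With hsa-miR-214-3p it was -0.20 (adjusted p = 0.790). IREB2 read 0.34 and 0.26, then -0.18 and 0.05, then 0.73 and -0.02 in the same order of groups, with differences of -0.05 (limma adjusted p = 0.912) and -0.42 (adjusted p = 0.427). For both genes the spread between control arrays limits what could be detected.

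SLC40A1 encodes ferroportin, the exporter. Its probe was read by 10 spots on each array, of which, on the hsa-miR-205-5p arrays, 9 and 5 were well above background, against 2 and 1 with hsa-miR-214-3p and 2 and 8 in the control. The levels were -1.16 and -1.24, then -2.31 and -2.47, then -2.46 and -1.96. The hsa-miR-205-5p arrays read highest, but no group had most of its spots above background on both arrays, so no fold and no test is given.

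A wider list of 83 iron genes, drawn up by function, placed the members in context. Of these, 82 had a named probe and 67 had a probe that was tested, 87 probes in all. With hsa-miR-205-5p, 4 of the 87 probes were called higher (4.60%) and 10 lower (11.5%), beside 4.14% and 8.05% of all tested probes, so the list lay near the background in both directions. With hsa-miR-214-3p, 0 were called higher by limma and 1 lower, beside 0.991% and 1.68% of all tested probes. At an unadjusted p under 0.05 with no limit on fold change, 20 of the 87 were higher (23.0%) and 15 lower (17.2%) with hsa-miR-205-5p, beside 18.4% and 18.8% of all tested probes. With hsa-miR-214-3p, 7 were higher (8.05%) and 14 lower (16.1%) at this p, beside 10.3% and 12.3%. The median difference of the list was 0.05 with hsa-miR-205-5p and 0.04 with hsa-miR-214-3p.

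**Figure D4:**
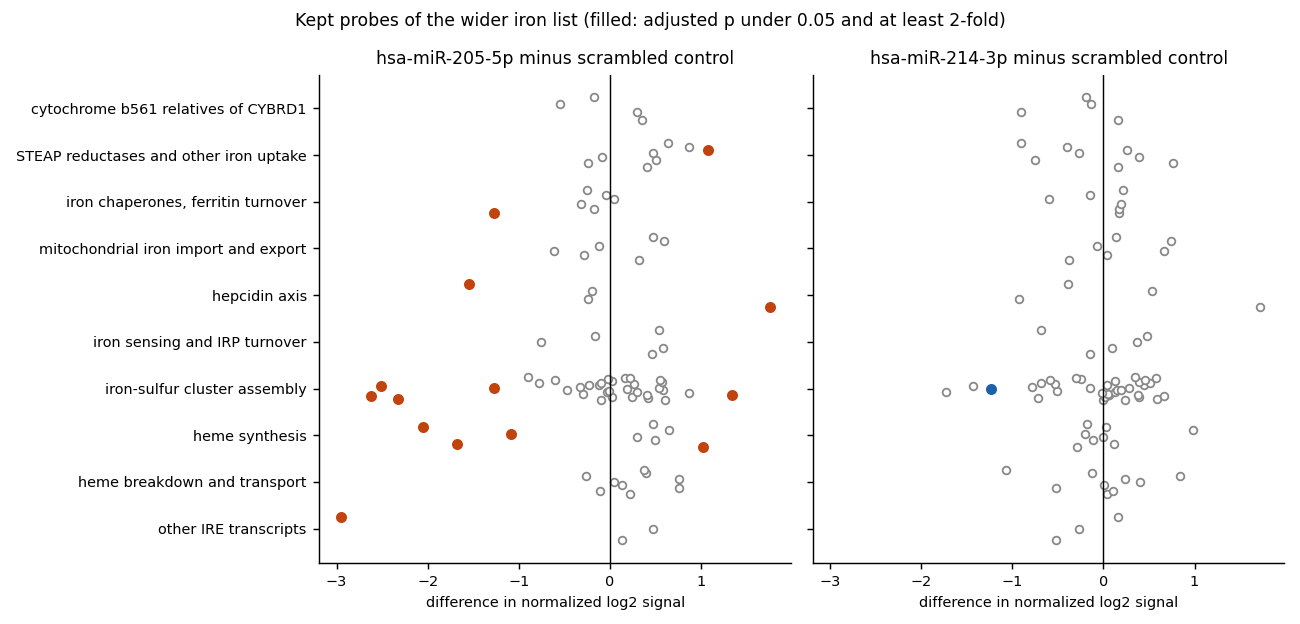
Difference in normalized log2 signal from the scrambled control (x axis) of the 87 tested probes of the wider iron list, in rows by function; each point is 1 probe and filled points were called. With hsa-miR-205-5p 14 points are filled, 10 below 0 and 4 above, and with hsa-miR-214-3p 1 is, at -1.23; the filled points of NUBP1, BMP6, ALAS1 and 1 UROS probe stand at the measured difference, which is no size since 1 group was not well above background.

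Beside CYBRD1 the list held its cytochrome b561 relatives. CYB561, CYB561A3, CYB561D1 and CYB561D2 differed from the control by between -0.55 and 0.36 with hsa-miR-205-5p and between -0.90 and 0.16 with hsa-miR-214-3p, and 0 of the 4 tested probes were called by limma in either comparison. Between the precursors, the CYB561 probe was called higher with hsa-miR-205-5p than with hsa-miR-214-3p, by 1.19 (limma adjusted p = 0.00661). It was 1 of 10 probes called higher among the 87 of the list (11.5%), and 12 were called lower (13.8%). Of all tested probes 8.37% and 11.5% were called in this comparison, so such a call is not particular to CYB561. HEPH, HEPHL1 and CP, the ferroxidases that work with ferroportin, had 0 tested probes among 4, like SLC40A1. NCOA4, the receptor that delivers ferritin for breakdown, had differences of 0.05 and -0.26 with hsa-miR-205-5p on its probes, neither past the test.

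Several called genes of the list were lower with hsa-miR-205-5p on 1 probe, while their other tested probes did not pass the test. CDC42BPA, a kinase whose message has a reported iron-responsive element, was lower by -2.95 on its tested probe (limma adjusted p = 0.00861). ISCA1 and LYRM4, which act in iron-sulfur cluster assembly, were lower by -2.62 and -1.27 on 1 probe each, and NUBP1, of the same process, was lower on 1 probe. Their other tested probes differed by -0.12 for ISCA1, 0.22 for NUBP1, and 0.41 and 0.61 for LYRM4. The hsa-miR-205-5p arrays did not read NUBP1 well above background, which makes its change at least 1.58-fold, and ISCA1 was measured on 1 of these 2 arrays. CIAPIN1, of the cytosolic assembly machinery, was lower by -2.51 on probe A_32_P204381 and differed by 0.19 on probe A_23_P88781. That last probe was the 1 called lower with hsa-miR-214-3p, by -1.23 (limma adjusted p = 0.0373), where the former differed by -1.43 (adjusted p = 0.0556).

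UROS, an enzyme of heme synthesis, was lower with hsa-miR-205-5p on both of its probes, by -1.68 (limma adjusted p = 0.0105) and, on a probe not well above background there, by at least 2.33-fold. PCBP2, a chaperone that hands iron to ferritin, was lower by -1.27 on 1 of 3 probes (limma adjusted p = 0.0180), while the others differed by -0.31 and -0.04. ISCU, the scaffold on which clusters are built, was higher by 1.34 (adjusted p = 0.0244). Of the hepcidin axis, HAMP, the iron hormone, was lower by -1.54 (adjusted p = 0.0330) and was measured above background on 1 of these 2 arrays. BMP6, which induces HAMP, is among the 4 probes counted as higher, but it passed the background filter through the hsa-miR-214-3p arrays alone. It was measured above background on no control array and on 1 array with hsa-miR-205-5p, so no fold and no test is given for it. The other called genes were SLC39A14 and PPOX, with differences of 1.08 and 1.02, and ALAS1, lower by at least 1.65-fold (limma adjusted p = 0.0390), since the hsa-miR-205-5p arrays did not read it well above background. HMOX1, the heme oxygenase that frees iron from heme, differed by -0.11 with hsa-miR-205-5p and 0.11 with hsa-miR-214-3p, neither past the test.

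Many of these differences were smaller with normexp, which adds an offset of 50 to each signal and so draws dim probes together. With it, the differences from the control with hsa-miR-205-5p were -0.86 for ISCA1, -0.50 for LYRM4, -0.72 for PCBP2 and -0.33 for HAMP, and none of these 4 probes was then called. NUBP1, ALAS1 and UROS probe A_33_P3233565 were not called with normexp either, and their differences were then smaller than the bounds given above. CDC42BPA, at -1.90, CIAPIN1 probe A_32_P204381, at -1.58, and UROS probe A_23_P35609, at -1.85, were still called lower with normexp. ISCU, SLC39A14 and PPOX, at 0.96, 0.76 and 0.72, were under the 2-fold limit.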

How the data were processed

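RNA of MDA-MB-231 cells was labeled with Cy3 and hybridized to 6 Agilent SurePrint G3 Human GE arrays, 1 sample per array, on 1 slide and in 1 scan. Groups come from the sample labels. The authors deposited the output of Agilent Feature Extraction 11.0 (version from the submitters' processing notes), with a processed signal for every spot. This deposited signal is a linear intensity after background subtraction by the software, with no scaling across arrays. A second deposited table, also by the authors, holds log2 values for 50739 probes, and its sorted columns are identical.

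Control and outlier spots (245 to 463 per array) were left out, the remaining spots were averaged by probe, and log2 of this mean minus the 75th percentile of its array (35.1 to 58.0) was used. Means and tests came from limma 3.58.1 (lmFit, eBayes, 3 residual and 2.47 prior degrees of freedom) on all 6 arrays in R 4.3.3, with Benjamini-Hochberg adjustment over 18468 probes, and plots from matplotlib. A probe counted as well above background when most of its spots were. With 2 arrays a group, precision is limited by their number. The scripts were tested on simulated data. The files hold accessions only, and 30275 of 50599 probes were named through the RefSeq gene annotation of GRCh38.p14, used for names, and RefSeq gave the sequences shown. At least N-fold is the brighter mean over the higher of the dim probe's own signal and the lowest signal well above background.

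Probes of CYBRD1 were left out of every count of member probes called. The members and the wider list were chosen with earlier results of these data known. The text names all members and the 5 genes most like CYBRD1 in profile. It also names the genes of the wider list called against the scrambled control (the 10 with the largest difference in full). Not every gene of that list called between the precursors is named. CYB561 relatives, HEPH, HEPHL1, CP, NCOA4 and HMOX1 were named after their values were seen. Alternatives covered background correction (normexp with offset 50, run on median signal since the files hold no mean), scaling, the authors' table, filters, samples in the fit, the replicate block, the variance model, leaving out each array, thresholds and the methods' t-test (two-tailed). Where an array was left out, its group had 1 array, so the spread in that fit came from the other groups alone. A slide block was not run, with 1 slide. FTH1 had no start window among the RefSeq sequences. A gene of the marker lists is not reported here.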

Additional observations from a re-analysis of the deposited data

How the results depend on the processing

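Both FTL probes kept their direction in all 20 alternatives of each comparison with the scrambled control, between -3.24 and -2.48 with hsa-miR-205-5p. Of the 14 member probes other than those of CYBRD1, 0 were called higher with hsa-miR-205-5p, and 1 was with no limit on fold change, and 0 to 1 when 1 array was left out. The count called lower was 2, and became 4 with normexp or scaling to the median, 0 with the methods' t-test after adjustment (2 before), and 0 to 3 when 1 array was left out. Those called higher with hsa-miR-214-3p ranged from 0 to 1 when 1 array was left out. Those called lower with hsa-miR-205-5p than with hsa-miR-214-3p were 2, became 4 with quantile normalization, scaling to the median, the authors' table or no limit on fold change, and ranged from 2 to 4 when 1 array was left out. The CYBRD1 difference with hsa-miR-214-3p was 1.87 with normexp and 2.29 in the report, and CYBRD1 itself ranged from 2.06 to 2.51 when 1 array was left out. Scaling to the median moved the median of all tested probes with hsa-miR-205-5p from 0.05 to -0.34, with hsa-miR-214-3p from -0.01 to -0.17, and between the precursors from 0.09 to -0.13.

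Some differences changed sign, and 0 of these were called in the report. With scaling to the median, against the control, hsa-miR-205-5p gave -0.044 for STEAP3 A_24_P200000, -0.033 for CYBRD1 A_24_P345451, -0.33 for SLC11A2 A_24_P381494 and -0.24 for FTH1 A_32_P342064, and hsa-miR-214-3p gave -0.074 for FTL A_19_P00812340 and -0.15 for SLC11A2 A_24_P381494. Between the precursors it gave -0.19 for STEAP3 A_24_P200000 and -0.18 for SLC11A2 A_24_P381494. With normexp the SLC11A2 probe gave -0.15, -0.11 and -0.047 in the same 3 comparisons, FTL A_19_P00812340 gave -0.16 with hsa-miR-214-3p and STEAP3 A_24_P200000 gave -0.036 between the precursors. FTH1 A_32_P342064 gave -0.017 with quantile normalization and -0.015 with the authors' table. When 1 array was left out, the ranges with hsa-miR-205-5p were -1.30 to 0.12 for SLC11A2 A_23_P139820, -0.52 to 0.027 for TFRC, -0.28 to 0.41 for SLC11A2 A_24_P381494 and -0.43 to 0.33 for IREB2. With hsa-miR-214-3p the ranges were -0.14 to 1.28, -0.39 to 0.16 and -0.33 to 0.36 for the first 3 of these probes. They were -0.74 to 0.34 for ACO1 and -0.11 to 0.033 for FTH1 A_33_P3253249. Between the precursors they were -0.046 to 0.11 for STEAP3 A_24_P200000 and -0.042 to 0.13 for SLC11A2 A_24_P381494. The cause of these changes was not tested.

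FTH1 A_24_P58337 passed the thresholds used with hsa-miR-205-5p in 7 of 20 alternatives, among them normexp (-1.26), quantile normalization (-1.21) and the authors' table (-1.21). Over all tested probes, 764 were called higher and 1486 lower with hsa-miR-205-5p, but 0 and 0 without its second array and by the adjusted t-test (597 and 1061 unadjusted), 173 and 305 with no filter, 261 and 597 with the 4 arrays alone, 276 and 2912 with scaling to the median, 149 and 842 with normexp, and 1529 higher with no limit on fold change. With hsa-miR-214-3p the 183 higher and 311 lower became 0 and 0 with no filter, the 4 arrays alone, the replicate block and when any array but the second control array was left out, and 1059 and 709 without that one, 66 and 365 with scaling to the median, 45 and 244 with normexp, and 496 and 715 by unadjusted p. The wider list's 4 higher and 10 lower with hsa-miR-205-5p ranged over all alternatives from 0 to 7 and from 0 to 13, and its 1 lower with hsa-miR-214-3p from 0 to 4. SLC39A14, ALAS1 and PPOX lost their call in 13, 12 and 13 alternatives and PCBP2, LYRM4, ISCA1, ISCU and HAMP in 8 to 10 of them. NUBP1 and CIAPIN1 (hsa-miR-205-5p) lost it in 3 and 2, CDC42BPA in 2, UROS in 3 and 11 by probe, and CIAPIN1 with hsa-miR-214-3p in 9.

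The replicate numbers of the labels did not pair the arrays (correlations of deviations 0.11, 0.01 and -0.05 between groups). With the replicate number as a block, the FTL probes differed by -2.85 and -2.75 with limma adjusted p = 0.0255, and the counts of member probes called, CYBRD1 left out, were the same in each comparison. The 2 arrays of each group, and signals near background for SLC40A1, limit what could be detected.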
